A study of Homo sapiens with 12 samples.

Results

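The comparison described here is GDC-0994 against DMSO in the cell line TTA-1, which takes 6 of the 12 RNA-seq libraries of the study, 3 with each agent. TTA-1 is an established human line from anaplastic thyroid carcinoma, the undifferentiated form of thyroid cancer, and its labels give BRAF as wild type (WT). The study's other line, KHM-5M, is labelled BRAF V600E and enters only where the responses of both lines are set side by side. TTA-1 cells grew in DMEM with 10% fetal bovine serum, were seeded in 6-well plates and received GDC-0994 at 1 µM, or the vehicle DMSO, for 24 hours. Both groups are thus the same line, with 1 dose and 1 time and no other agent. Nothing in the labels says whether the 3 libraries of a group came from separate cultures, so the p-values measure the spread between these libraries, which may be technical.

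GDC-0994, also called ravoxertinib, inhibits the ERK kinases, the last step of the cascade that runs from RAS through RAF and MEK. Active ERK phosphorylates transcription factors such as those of the ETS family, which switches on immediate-early genes within minutes and cyclin D1 and cell surface genes later. Among the genes it drives are phosphatases and adaptor proteins that damp the cascade again, so their RNA is widely read as a measure of ERK activity. In thyroid cancer this cascade is the one most often activated by mutation.

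The 6 libraries held 14952970 to 16518063 counts, with 4.05% to 4.89% of them on mitochondrially encoded genes. Of 58735 annotated genes, 13750 passed a filter on low counts and were tested with edgeR's quasi-likelihood test, with p-values adjusted by the Benjamini-Hochberg method over these genes. A gene is said to have risen or fallen where its adjusted p was below 0.05. Levels are given in CPM, the counts of a gene relative to a fixed library total, scaled for library composition. The value after ± is a standard error derived from the test: the absolute log2 fold change beside it over the square root of the F statistic. TTA-1 DMSO replicates 1 and 2 stood apart from each other. Over 10141 genes above 5 CPM, the correlation across genes of GC content with the log2 ratio of replicate 1 to the other DMSO libraries was 0.75, and that of replicate 2 was -0.72. For DMSO replicate 3 it was 0.14, and for the GDC-0994 replicates it ranged from -0.39 to 0.28. The mean absolute log2 difference between DMSO replicates 1 and 2 was 0.305, against 0.110 to 0.209 between the other pairs of a group. Genes are not independent replicates, so these correlations describe the libraries.

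**Figure D1:**
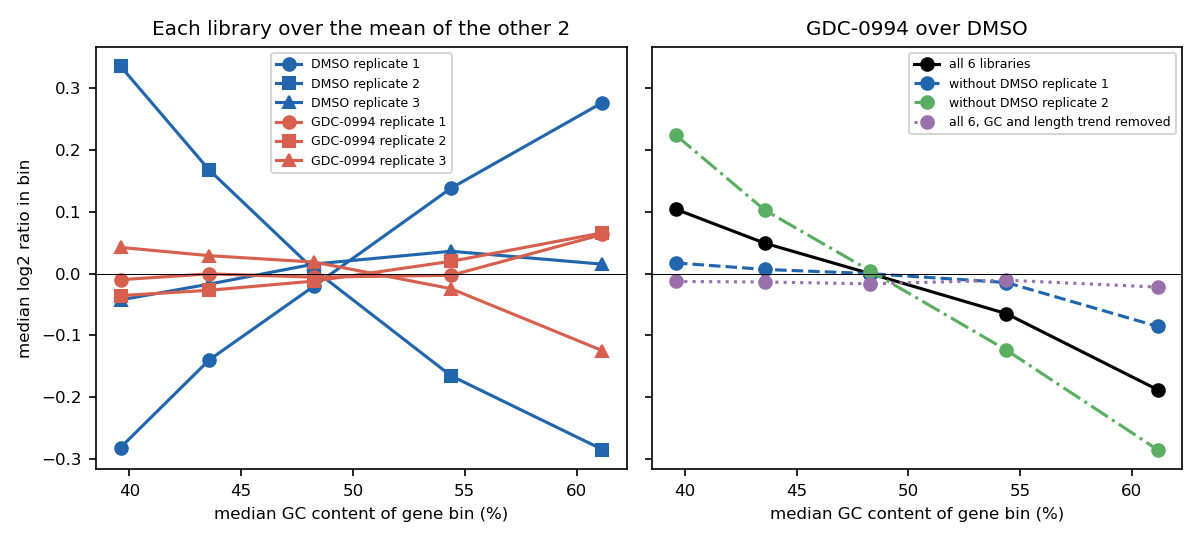
The left panel plots the median log2 ratio of each TTA-1 library to the mean of the other 2 of its group, over 5 bins of genes by GC content (%). The right panel plots the median log2 fold change of GDC-0994 over DMSO in the same bins, with all 6 libraries, without DMSO replicate 1 or 2, and with the GC and length trend removed. In the highest bin DMSO replicate 1 lies at 0.277 and DMSO replicate 2 at -0.285, and the treatment effect there goes from -0.188 with all libraries to -0.0854 without replicate 1 and -0.285 without replicate 2.

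More genes fell than rose with GDC-0994. Of the 13750 tested genes, 206 were called (1.5%), of which 137 fell (0.996%) and 69 rose (0.502%). At least 2-fold changes made up 60 of them, 41 falls and 19 rises. The fallen genes had a median GC content of 54.0%, the risen genes 46.1% and all tested genes 48.8%. In each of the 206 genes the 3 GDC-0994 values lay wholly above or wholly below the 3 DMSO values, as they did in 20.5% of all tested genes (2818).

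The DMSO libraries 1 and 2 changed these counts unequally. Without DMSO replicate 1, 66 genes rose (0.469%) and 121 fell (0.861%), together 1.33%, and 50 of the risen and 114 of the fallen genes remained called. Without DMSO replicate 2, 1219 rose (8.65%) and 1669 fell (11.8%), together 20.5% of the genes tested then, among them all 69 and all 137 of the genes above. The genes added by leaving out replicate 2 had a median GC content of 40.8% where they rose and 59.1% where they fell. With a smooth trend in GC content and gene length removed from each library, 264 rose (1.92%) and 346 fell (2.52%), together 4.44%, with 68 and 137 of the genes above among them. The same 50 risen and 114 fallen genes were called in all 3 of these fits. Fewer genes were called without any 1 of the other libraries: 48 without DMSO replicate 3, 65 without GDC-0994 replicate 1, 49 without replicate 2 and 45 without replicate 3. A set of 41 genes, 32 fallen and 9 risen, was called without each of the 6 libraries in turn. It holds the named genes EGR1, DUSP5, NT5E, TGM2, PHLDA1, SPRY4, MAFF, ETV4, ETV5, CCND1, EPHA2, CDKN1A and ITGA3 among the falls, and AKR1C2, C1S, NNMT, ZSCAN31 and HEG1 among the rises. Each gene named below as called also kept its call without DMSO replicate 2. Counts of list members called with all 6 libraries stand beside 1.5% of all tested genes. Counts of list members called without DMSO replicate 2 stand beside 20.5% of all genes called in that fit.

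**Figure D2:**
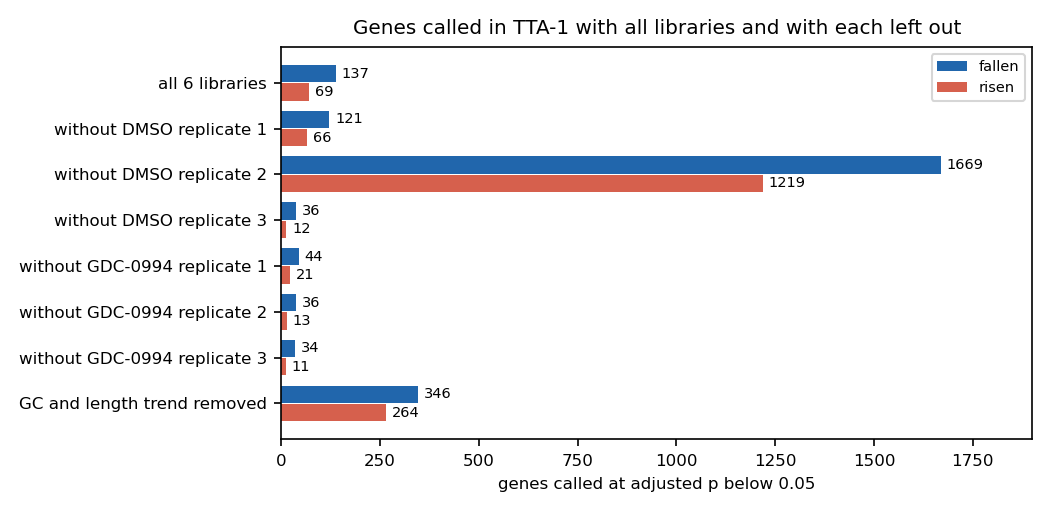
Bars give the number of genes fallen (blue) and risen (red) in TTA-1 at an adjusted p below 0.05, with all 6 libraries, with each library left out in turn, and with the GC and length trend removed. The count without DMSO replicate 2 (1669 and 1219) is far above the others, and the counts without DMSO replicate 3 or any GDC-0994 replicate (34 to 44 falls, 11 to 21 rises) are below the 137 and 69 of all libraries.

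**Figure D3:**
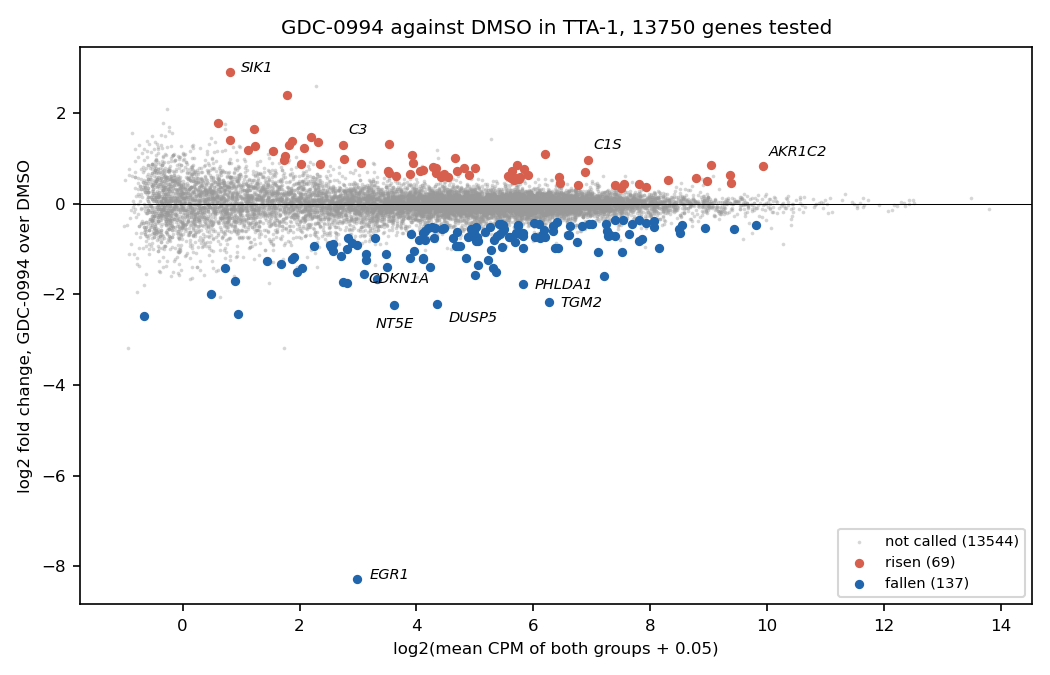
Each point is 1 of 13750 tested genes, placed by its log2 mean CPM over both groups (with 0.05 added, x axis) and its fitted log2 fold change of GDC-0994 over DMSO (y axis), and coloured where it rose (red) or fell (blue). EGR1 lies alone at -8.27, a fitted value that depends on the prior count because the GDC-0994 libraries held 2 counts in all, and CDKN1A, the gene of a cell cycle inhibitor, lies among the falls.

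Most genes of a list of ERK output, chosen with earlier results of these data known, fell. Of its 10 genes, 9 were tested and 6 fell. The median log2 fold change of the tested members was -0.97, against -0.00094 over all tested genes. PHLDA1, a pleckstrin homology domain protein whose RNA follows ERK activity, was at 84.5, 94.2 and 83.3 CPM in DMSO replicates 1, 2 and 3 and at 27.3, 25.9 and 23.3 CPM in GDC-0994 replicates 1, 2 and 3, which is 3.43-fold lower (log2 fold change -1.78 ± 0.10, adjusted p = 3.34e-05, edgeR). The Sprouty gene SPRY4, an inhibitor of receptor signalling to RAS, went from 10.5, 11.8 and 10.1 CPM to 3.97, 3.13 and 2.51 CPM (-1.75 ± 0.18, adjusted p = 0.00133). All GDC-0994 libraries lay below all DMSO libraries for both genes, as they did for every gene called as fallen. In bulk RNA, fewer cells of a kind and less RNA per cell cannot be told apart, here and below.

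The PEA3 transcription factors ETV4 and ETV5, ETS family members that ERK induces, also fell. ETV4 was at 25.5, 20.9 and 25.6 CPM with DMSO and 11.6, 11.2 and 8.46 CPM with GDC-0994 (log2 fold change -1.20 ± 0.15, adjusted p = 0.00386). ETV5 was at 74.2, 79.4 and 71.8 CPM with DMSO and 36.7, 39.4 and 38.7 CPM with GDC-0994 (-0.97 ± 0.09, adjusted p = 6.12e-04), a fold of 1.96. CCND1, which encodes cyclin D1, the partner of CDK4 and CDK6, went from 214, 219.7 and 197 CPM to 134, 132 and 119 CPM (-0.71 ± 0.08, adjusted p = 0.0028). The receptor tyrosine kinase gene EPHA2 went from 306, 264 and 288 CPM to 163, 168 and 151 CPM (-0.83 ± 0.08, adjusted p = 0.00107). The groups did not overlap for any of these 4 genes, which holds for every called gene.

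The remaining ERK output members did not pass the test. DUSP6, the phosphatase gene most closely tied to ERK, was low in this line, at 2.34, 2.14 and 2.86 CPM with DMSO and 0.576, 1.09 and 0.0661 CPM with GDC-0994, and its log2 fold change of -2.06 ± 0.51 had an adjusted p of 0.09. Its groups did not overlap, as was so in 20.5% of all tested genes. Its adjusted p was 0.0125 without DMSO replicate 2, and 0.0972 to 0.338 with any 1 other library left out instead. DUSP4, another phosphatase of ERK, went from 46.4, 37.2 and 40.7 CPM to 30.4, 29.6 and 26.0 CPM (log2 fold change -0.53 ± 0.11, adjusted p = 0.0566). Its adjusted p was 0.00207 without DMSO replicate 2, where 20.5% of all genes were called, and 0.0937 to 0.291 with any 1 other library left out. SPRY2 went from 3.35, 3.77 and 3.35 CPM to 2.88, 2.87 and 2.18 CPM (adjusted p = 0.392), and EPHA4 was too low to be tested. Without DMSO replicate 1 the same number of the list's genes, 6, fell with a median of -0.98, and without DMSO replicate 2 there were 8 with a median of -0.94.

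**Figure D4:**
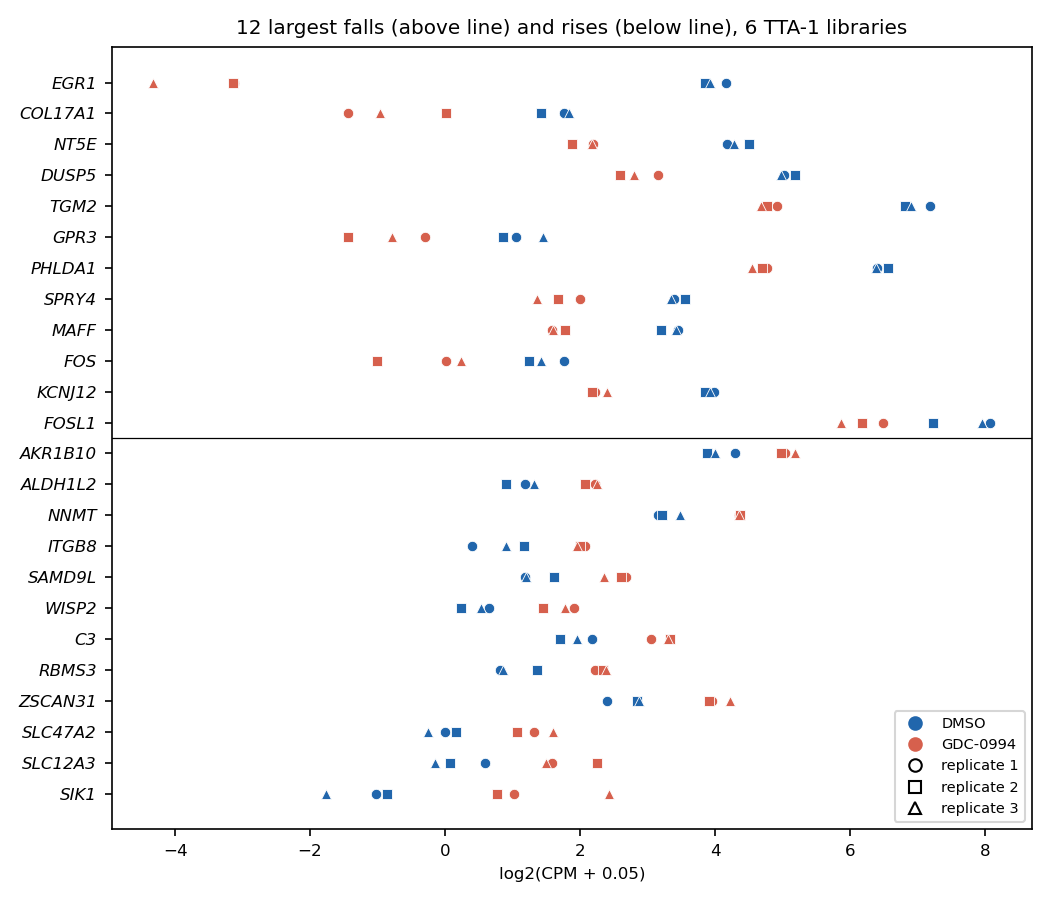
Values are log2(CPM + 0.05) of each of the 6 TTA-1 libraries (x axis) for the 12 protein-coding genes with the largest falls (above the line) and the 12 with the largest rises (below it), DMSO in blue and GDC-0994 in red, with the marker giving the replicate. In all 24 genes the red and blue markers do not overlap, which was a condition of their choice. EGR1 shows the widest gap, from 14.3 CPM or more with DMSO to 0.0640 CPM or less with GDC-0994.

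Immediate-early and AP-1 genes, whose transcription ERK starts through ETS and serum response factors, held the widest fall of the comparison. Of 28 genes on the list, 22 were tested, 8 fell and none rose, with a median log2 fold change of -0.52. EGR1 (GRCh38, ENSG00000120738, chromosome 5, 138465490 to 138469315), a zinc finger transcription factor, was at 17.8, 14.3 and 15.1 CPM in the DMSO libraries and at 0.0640, 0.0638 and 0 CPM in the GDC-0994 libraries. These values come from 758 counts with DMSO and 2 counts with GDC-0994, a ratio of 366 with a 95% counting interval from 101 to 3024 (adjusted p = 3.77e-06, edgeR). The interval covers counting error only, and EGR1 RNA was close to undetected in all 3 treated libraries.

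MAFF, a small MAF protein that joins AP-1 type dimers, was at 10.9, 9.12 and 10.7 CPM with DMSO and 2.94, 3.38 and 2.98 CPM with GDC-0994 (log2 fold change -1.72 ± 0.16, adjusted p = 6.57e-04). FOS itself was scarce, at 3.35, 2.33 and 2.62 CPM against 0.960, 0.447 and 1.12 CPM (-1.71 ± 0.34, adjusted p = 0.0402). FOSL1, which encodes the AP-1 subunit FRA1, was far more abundant in the same libraries, at 270.2, 151 and 249 CPM with DMSO and 89.8, 72.1 and 58.0 CPM with GDC-0994 (-1.61 ± 0.22, adjusted p = 0.00617). DMSO replicate 2 was the lowest of its group for FOSL1, yet above every treated library. KLF2, a Kruppel-like factor, went from 30.0, 15.8 and 26.8 CPM to 13.2, 10.5 and 7.40 CPM (-1.22 ± 0.25, adjusted p = 0.0499), and MYC, a growth-promoting transcription factor, from 629, 517 and 595 CPM to 437, 414 and 346 CPM (-0.54 ± 0.11, adjusted p = 0.039). The stress-response gene IER3 and the Kruppel-like factor KLF4 fell by 0.94 and 0.82 on the log2 scale.

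Several of these calls were lost with 1 library left out. Over all genes, 45 to 65 were called without DMSO replicate 3 or any 1 GDC-0994 replicate, against 206 with all 6 libraries. FOS and KLF2 were not called without DMSO replicates 1 or 3 or any GDC-0994 replicate (adjusted p 0.0634 to 0.237), MYC and KLF4 without DMSO replicate 3 or any GDC-0994 replicate (0.0702 to 0.206), and FOSL1 and IER3 without DMSO replicate 3 or GDC-0994 replicates 2 or 3 (0.0537 to 0.0899). In the list as a whole 6 genes fell without DMSO replicate 1 (median -0.38) and 15 without DMSO replicate 2 (median -0.62), and 12 with the GC trend removed (median -0.36). The list moved with the GC trend of the libraries: relative to the other DMSO libraries its median log2 ratio was 0.26 in DMSO replicate 1 and -0.30 in replicate 2. Members that gave no call include JUN, at 149.7, 105 and 122 CPM against 89.6, 96.9 and 83.3 CPM (adjusted p = 0.109), and ATF3, at 23.5, 22.8 and 24.9 CPM against 23.8, 25.4 and 21.1 CPM (adjusted p = 0.952).

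Promoter sequences were available for some of these genes in a RefSeq table of GRCh38.p14, which gives 250 bases before and 50 after a gene's start and matched 9726 of the tested genes, 97 of the fallen and 43 of the risen. The table held 8 of the 12 largest falls. The 3 printed here are those among them that hold a searched motif, of factors that sit below ERK or beside it. The windows of COL17A1, NT5E, PHLDA1, SPRY4 and FOS, also among the 12 largest falls, held none of these motifs, and sites outside the windows were not searched. They run 5′ to 3′ on the gene's strand, and capitals mark the CArG boxes (the core that serum response factor binds) in EGR1, the AP-1 site TGANTCA in GPR3 and the cyclic AMP response element TGACGTCA in GPR3 and MAFF.
EGR1: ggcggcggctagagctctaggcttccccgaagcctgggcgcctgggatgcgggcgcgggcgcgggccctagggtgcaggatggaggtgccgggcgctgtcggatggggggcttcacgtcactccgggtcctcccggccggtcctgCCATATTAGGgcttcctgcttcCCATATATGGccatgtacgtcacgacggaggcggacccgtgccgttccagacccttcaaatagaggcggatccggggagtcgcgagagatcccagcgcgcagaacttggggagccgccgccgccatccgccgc
GPR3: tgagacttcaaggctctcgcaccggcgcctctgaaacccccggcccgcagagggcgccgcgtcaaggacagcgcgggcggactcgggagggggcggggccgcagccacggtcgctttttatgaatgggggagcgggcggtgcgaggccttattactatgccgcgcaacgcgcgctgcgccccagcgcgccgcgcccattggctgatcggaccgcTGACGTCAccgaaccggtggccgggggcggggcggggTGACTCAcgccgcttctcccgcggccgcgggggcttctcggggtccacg
MAFF: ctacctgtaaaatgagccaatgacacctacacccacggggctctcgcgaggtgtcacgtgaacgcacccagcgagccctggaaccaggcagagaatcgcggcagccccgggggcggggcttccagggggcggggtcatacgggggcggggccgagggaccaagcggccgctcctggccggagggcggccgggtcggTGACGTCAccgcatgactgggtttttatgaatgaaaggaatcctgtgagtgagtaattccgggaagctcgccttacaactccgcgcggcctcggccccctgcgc
The EGR1 window is chr5:138465229-138465528, that of GPR3 chr1:27392372-27392671 and that of MAFF chr22:38201744-38202043, all on the plus strand.

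Motifs were searched on both strands of the 300-base windows, and neither of the AP-1 and cyclic AMP response motifs contains the other. A CArG box was found in 0.977% of the promoters of tested genes and in 1.29% of all 27305 promoters in the table. Among the fallen genes it was found in 3 of 97 promoters, those of EGR1, which holds 2, and of FHL2 and CAPN2, which hold 1 each. The AP-1 site was in 15 of 97 promoters of fallen genes (15.5%), in 3 of 43 of risen genes (6.98%) and in 4.58% of those of tested genes. Among the 12 largest falls it was in 1 of 8 promoters, and among the 12 largest rises in 1 of 7. The cyclic AMP response element was in 4 of 97 fallen, none of 43 risen and 3.27% of tested genes' promoters. Such a match is a description of letters in a window, and a window without one says nothing about sites outside it. The windows of PHLDA1, SPRY4, NT5E and MAFF lie wholly inside the gene bounds given with the counts. FHL2 and CAPN2 were not called without DMSO replicate 3 or any GDC-0994 replicate (adjusted p 0.0881 to 0.231).

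Feedback inhibitors of the cascade fell in part. Of 22 genes on the list 19 were tested and 4 fell (DUSP5, PHLDA2, SH2B3 and ERRFI1), with a median log2 fold change of -0.35. DUSP5 (ENSG00000138166, chromosome 10, 110497838 to 110511544), a nuclear phosphatase of ERK, was at 32.3, 36.5 and 31.6 CPM with DMSO and 8.83, 6.00 and 6.94 CPM with GDC-0994, which is 4.61-fold lower (log2 fold change -2.20 ± 0.15, adjusted p = 8.82e-05). PHLDA2 went from 61.8, 34.7 and 45.9 CPM to 22.6, 19.6 and 13.9 CPM, with DMSO replicate 2 lowest in its group (-1.34 ± 0.22, adjusted p = 0.0191). ERRFI1, which blocks the EGF receptor, fell by 0.46 and the adaptor gene SH2B3 by 0.50 on the log2 scale. PHLDA2, ERRFI1 and SH2B3 were not called without DMSO replicate 3 or any one GDC-0994 replicate (adjusted p 0.0534 to 0.162). DUSP1, DUSP7, SPRED1 and TRIB1 had log2 fold changes of -0.41, -0.35, -0.50 and -0.38 with adjusted p from 0.087 to 0.138. Without DMSO replicate 1 4 members fell, and without DMSO replicate 2 10 fell and 1 rose.

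The genes of the cascade itself gave no call. None of the 17 tested genes of RAS, RAF, MEK, ERK and their partners rose or fell, and 1 had an unadjusted p below 0.05. Their median log2 fold change was 0.04. BRAF, the kinase gene whose status the labels give, was at 18.5, 21.9 and 22.6 CPM with DMSO and 24.3, 22.5 and 22.1 CPM with GDC-0994 (adjusted p = 0.629). The summed level of the 17 genes ranged from 1595 to 1652 CPM with DMSO and from 1632 to 1651 CPM with GDC-0994. Without DMSO replicate 2, 3 of the 17 rose and 2 fell, beside 20.5% called of all genes in that fit.

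Among 21 tested growth factor receptors and ligands 1 fell. AXL, a receptor tyrosine kinase gene, was at 473, 380.4 and 432 CPM with DMSO and 299, 299 and 278 CPM with GDC-0994 (-0.55 ± 0.09, adjusted p = 0.0175), and was not called without DMSO replicate 3 or any one GDC-0994 replicate (adjusted p 0.0893 to 0.153). The hepatocyte growth factor receptor gene MET, at 4765, 6665 and 5413 CPM with DMSO and 5783, 5901 and 6232 CPM with GDC-0994, had an adjusted p of 0.733. The EGF receptor gene EGFR had a log2 fold change of -0.16 (adjusted p = 0.332), and the ligand gene PDGFA one of -0.89 (adjusted p = 0.0581).

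**Figure D5:**
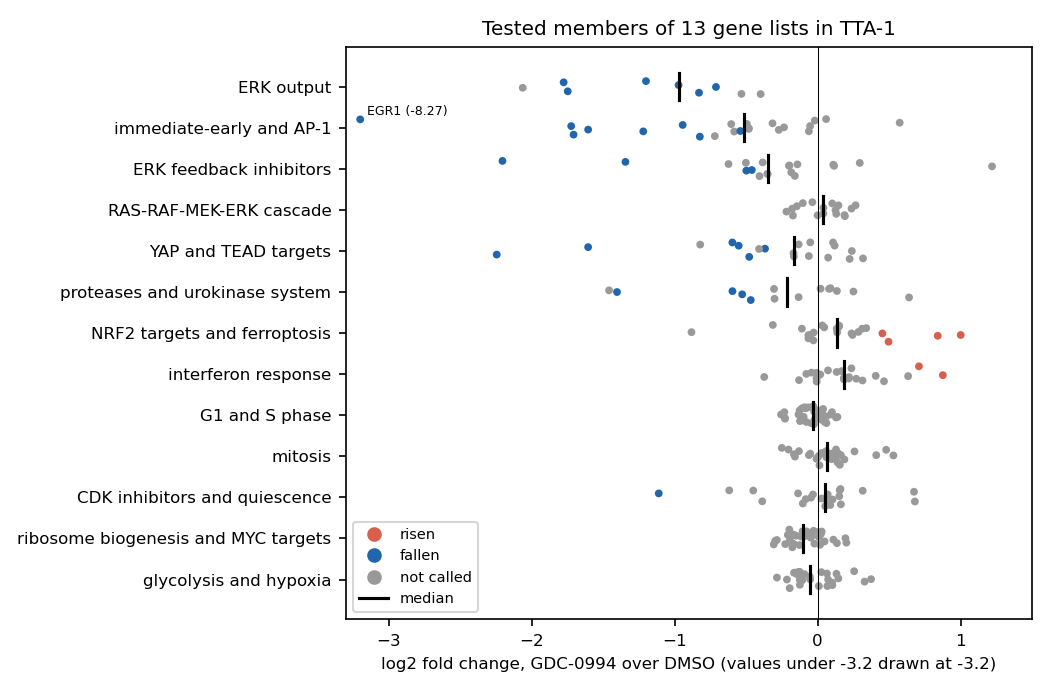
Each point is 1 tested member of a gene list, placed by its log2 fold change of GDC-0994 over DMSO (x axis) and coloured where it rose (red) or fell (blue), and the black bar is the median of the list. Medians lie at -0.97 for ERK output and -0.52 for immediate-early genes, against 0.04 for the cascade, -0.03 for G1 and S phase and 0.06 for mitosis, and EGR1 is drawn at the edge of the axis.

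Cell cycle genes showed no calls apart from cyclin D1 and a CDK inhibitor. Of 31 tested G1 and S phase genes none was called, with a median log2 fold change of -0.03 and 2 unadjusted p-values below 0.05. The same held for 30 tested mitosis genes, with a median of 0.06 and 2 such p-values. MKI67, the proliferation marker Ki-67, was at 384, 369 and 452 CPM with DMSO and 453, 417 and 393 CPM with GDC-0994 (adjusted p = 0.771). The E2F1 gene was at 61.6, 51.4 and 53.9 CPM and 49.0, 46.1 and 46.9 CPM (adjusted p = 0.3). Without DMSO replicate 2, 7 of the 31 G1 and S phase genes fell, and 7 of the 30 mitosis genes rose and 4 fell, where 20.5% of all genes were called, so these counts say little about the lists.

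CDKN1A (ENSG00000124762, chromosome 6, 36676460 to 36687339), which encodes the CDK inhibitor p21, was the 1 called gene of 23 tested CDK inhibitors and quiescence genes. It was at 16.4, 14.3 and 14.99 CPM in the DMSO libraries and at 7.17, 7.85 and 6.08 CPM in the GDC-0994 libraries, 2.16-fold lower (log2 fold change -1.11 ± 0.14, adjusted p = 0.00386). Every treated library held less than every control, as in every gene called as fallen, and the call held without each library in turn. CDKN1B, which encodes p27, was at 13.9, 13.96 and 14.6 CPM against 16.7, 13.02 and 15.4 CPM (adjusted p = 0.781).

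In the BCL2 family 1 of 14 tested genes fell. BCL2L1, which encodes the survival protein BCL-XL, went from 75.7, 48.7 and 73.7 CPM to 42.4, 35.5 and 32.4 CPM (-0.84 ± 0.17, adjusted p = 0.0422), with DMSO replicate 2 again lowest among the controls. Among the death genes, BCL2L11 (BIM) was at 24.5, 30.5 and 27.6 CPM against 34.5, 30.5 and 29.9 CPM (adjusted p = 0.447) and BMF at 1.83, 1.13 and 2.25 CPM against 3.97, 4.21 and 3.70 CPM (adjusted p = 0.0574). Of 17 tested p53 targets 2 fell, the stress cytokine GDF15 (-1.17 ± 0.21, adjusted p = 0.0258) and the kinase gene PLK3 (-0.86 ± 0.17, adjusted p = 0.0422), and MDM2 had an adjusted p of 0.6. BCL2L1 and PLK3 were not called without DMSO replicate 1 or 3 or any GDC-0994 replicate (adjusted p 0.0565 to 0.239), nor GDF15 without DMSO replicate 3 or any GDC-0994 replicate (0.0827 to 0.155).

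Several of the widest falls were genes of the cell surface and matrix. NT5E (ENSG00000135318, chromosome 6, 85449584 to 85495791), the surface enzyme CD73 that makes adenosine, was at 18.1, 22.7 and 19.3 CPM with DMSO and 4.54, 3.64 and 4.496 CPM with GDC-0994, 4.74-fold lower (-2.24 ± 0.15, adjusted p = 8.82e-05). TGM2, a transglutaminase that crosslinks matrix proteins, went from 145, 112 and 119.7 CPM to 30.1, 27.4 and 25.7 CPM (-2.18 ± 0.12, adjusted p = 3.25e-05). COL17A1, a collagen of the hemidesmosome, went from 3.35, 2.64 and 3.53 CPM to 0.320, 0.957 and 0.463 CPM (-2.43 ± 0.36, adjusted p = 0.0111). For all 3 genes every treated library lay below every control, as was required of the 12 largest falls. The fold for COL17A1 was 5.41. COL17A1 was not called without DMSO replicate 3 or GDC-0994 replicates 1 or 3 (adjusted p 0.0562 to 0.0915).

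Integrin subunits, a family looked at after its values were seen, were mixed. Of 14 tested integrin subunits 4 fell and 1 rose, with a median log2 fold change of -0.07. ITGA2, a collagen receptor subunit, was at 52.6, 70.7 and 58.4 CPM against 23.2, 21.9 and 19.0 CPM (-1.50 ± 0.13, adjusted p = 5.61e-04). ITGA3, a laminin receptor subunit, was at 279, 216 and 247 CPM against 121, 118 and 114 CPM (-1.07 ± 0.10, adjusted p = 6.85e-04). ITGB5 and ITGA6 fell by 0.68 and 0.50 on the log2 scale, and ITGB8 rose from 1.26, 2.20 and 1.83 CPM to 4.16, 3.96 and 3.83 CPM (1.17 ± 0.23, adjusted p = 0.0422). The laminin chain gene LAMB3 fell as well (-0.79 ± 0.08, adjusted p = 0.00117). ITGA6 was not called without DMSO replicate 3 or any GDC-0994 replicate, nor ITGB8 without these or DMSO replicate 1 (adjusted p 0.0784 to 0.2 over both).

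Other surface genes that fell were singled out after their values were seen. They are the anthrax toxin receptor ANTXR2 (-1.42 ± 0.09), the semaphorin SEMA7A (-1.40 ± 0.13), the sialomucin PODXL (-0.98 ± 0.07) and the SRC substrate CDCP1 (-0.85 ± 0.08), all called without each library in turn. PODXL, for example, was at 374, 371 and 392 CPM with DMSO and 196, 192 and 188 CPM with GDC-0994. CD44, the hyaluronan receptor, went from 177, 168 and 179 CPM to 129.6, 127 and 125 CPM (-0.46 ± 0.07, adjusted p = 0.016) and was not called without DMSO replicate 3 or any GDC-0994 replicate (adjusted p 0.0889 to 0.146).

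Of 14 tested proteases and urokinase system genes 4 fell. ADAMTS6, a secreted metalloproteinase, was at 14.9, 18.4 and 15.9 CPM with DMSO and 5.89, 5.04 and 7.67 CPM with GDC-0994 (-1.40 ± 0.17, adjusted p = 0.00325). The urokinase receptor gene PLAUR went from 20.9, 21.5 and 21.4 CPM to 13.5, 13.7 and 15.01 CPM (-0.60 ± 0.11, adjusted p = 0.0272), and the inhibitor gene SERPINB2 fell by 0.53 on the log2 scale. Urokinase itself, PLAU, was at 65.6, 62.6 and 64.7 CPM against 55.4, 60.6 and 60.0 CPM (adjusted p = 0.487). PLAUR and SERPINB2 were not called without DMSO replicate 3 or any GDC-0994 replicate (adjusted p 0.114 to 0.261).

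YAP and TEAD targets, genes that respond to cell tension and density, held 6 falls among 19 tested members and a median log2 fold change of -0.17. The fallen genes were NT5E, FOSL1, AXL, CTGF, CYR61 and ANKRD1, of which NT5E, FOSL1 and AXL are described above. CYR61, a matrix-bound growth regulator, was at 1164, 934 and 1016 CPM with DMSO and 726, 746 and 764 CPM with GDC-0994 (-0.48 ± 0.09, adjusted p = 0.0281). CTGF went from 50.1, 61.1 and 50.2 CPM to 34.0, 35.4 and 37.3 CPM (-0.60 ± 0.11, adjusted p = 0.0272) and ANKRD1 from 259, 235 and 267 CPM to 195, 201 and 194 CPM (-0.37 ± 0.08, adjusted p = 0.0484). The groups do not overlap for any of the 3, which holds for every called gene. CYR61 and CTGF were not called without DMSO replicate 3 or any GDC-0994 replicate, nor ANKRD1 without these or DMSO replicate 1 (adjusted p 0.0638 to 0.281 over the 3 genes). YAP1 was at 107, 113 and 105 CPM against 113, 95.7 and 102 CPM (adjusted p = 0.782).

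The calls lost without DMSO replicate 1 numbered 19 of the 69 rises and 23 of the 137 falls. Of these falls, THSD4 and FRMD4A are among the largest 4 with a mean of at least 5 CPM, beside KLF2 and the pseudogene AL139095.2 (-1.16 ± 0.23). THSD4, a secreted thrombospondin repeat protein gene, was at 12.2, 8.49 and 9.99 CPM with DMSO and 4.48, 6.13 and 5.75 CPM with GDC-0994 (-0.91 ± 0.18, adjusted p = 0.0425, and 0.0769 without DMSO replicate 1). FRMD4A, a scaffold protein gene, was at 8.66, 6.16 and 8.23 CPM against 4.42, 4.34 and 3.70 CPM (-0.89 ± 0.18, adjusted p = 0.0444, and 0.0887 without it). KLF2, described above, had an adjusted p of 0.0634 without it, and the risen genes GPNMB and IFIH1 had 0.0698 and 0.0663. THSD4 and FRMD4A were also lost without DMSO replicate 3 or any GDC-0994 replicate (adjusted p up to 0.198 and 0.237).

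Among the other large falls were KCNJ12, MAP2K3 and transcription regulators. KCNJ12, an inward rectifier potassium channel gene with the near-identical copy KCNJ18, was at 15.9, 14.3 and 15.2 CPM with DMSO and 4.61, 4.47 and 5.22 CPM with GDC-0994 (-1.67 ± 0.13, adjusted p = 2.69e-04), and its copy had no count. GPR3, a receptor that raises cyclic AMP, went from 2.02, 1.76 and 2.68 CPM to 0.768, 0.319 and 0.529 CPM (-1.99 ± 0.36, adjusted p = 0.0281). HES1, a Notch target, went from 6.58, 4.78 and 6.40 CPM to 1.79, 2.74 and 2.12 CPM (-1.41 ± 0.22). ETS1 and ELK3, ETS family factors, fell by 0.61 and 0.73, HMGA2, a chromatin protein, by 0.71, and MAP2K3, a kinase of the p38 pathway, by 0.75 on the log2 scale. GPR3 was not called without DMSO replicate 3 or any GDC-0994 replicate (adjusted p 0.0702 to 0.172), HES1 without DMSO replicate 3 or GDC-0994 replicates 1 or 3 (0.0834 to 0.119), HMGA2 and MAP2K3 without DMSO replicate 3 or GDC-0994 replicates 2 or 3 (0.061 to 0.0918), ETS1 without GDC-0994 replicates 2 or 3 (0.0517 to 0.0547) and ELK3 without GDC-0994 replicate 3 (0.071).

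Genes that rose included members of a list of NRF2 targets and genes of ferroptosis, a form of cell death. The list includes enzymes against oxidative and carbonyl stress. Of 24 tested genes 4 rose and none fell, with a median log2 fold change of 0.14. AKR1C2 (ENSG00000151632, chromosome 10, 4987400 to 5018031), an aldo-keto reductase that acts on steroids, was at 686, 693 and 705 CPM with DMSO and 1254, 1178 and 1299 CPM with GDC-0994 (0.84 ± 0.07, adjusted p = 2.69e-04). AKR1C3 went from 537, 566 and 581 CPM to 765, 749 and 793 CPM (0.45 ± 0.07, adjusted p = 0.0124), while AKR1C1 was at 1314, 1249 and 1273 CPM against 1287, 1203 and 1199 CPM (adjusted p = 0.721). These 3 genes are close in sequence, so the split of reads between them is uncertain. Their sum in CPM of the plain library total was 2502, 2494 and 2543 with DMSO and 3301, 3149.9 and 3329 with GDC-0994, which does not overlap.

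AKR1B10, a retinal and aldehyde reductase gene, rose from 19.5, 14.7 and 16.0 CPM to 32.8, 31.6 and 36.2 CPM (1.00 ± 0.13, adjusted p = 0.00446), and GCLM, the regulatory subunit of glutathione synthesis, from 365, 488 and 395 CPM to 595, 569.8 and 595 CPM (0.50 ± 0.10, adjusted p = 0.0499). AKR1B10 was not called without DMSO replicate 3 (adjusted p = 0.0601), AKR1C3 without DMSO replicate 3 or any GDC-0994 replicate (0.0718 to 0.109), and GCLM without these or DMSO replicate 1 (0.0573 to 0.239). Without DMSO replicate 1, 3 members rose with a median of 0.16, and without DMSO replicate 2, 8 rose and 2 fell with a median of 0.03. NQO1, another target, was at 484, 469 and 502 CPM against 539, 532 and 529 CPM (adjusted p = 0.37) and HMOX1 at 114, 69.1 and 100.2 CPM against 117, 121 and 121 CPM (adjusted p = 0.333). PTGR1, a prostaglandin reductase gene named after its values were seen, rose from 363, 341 and 355 CPM to 513, 522 and 543 CPM (0.57 ± 0.07, adjusted p = 0.0031). The ferritin gene FTH1 had the lowest value of the list, -0.88, with a wide spread (2020.0, 1117 and 1676 CPM against 1328, 792 and 491 CPM, adjusted p = 0.236).

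Some complement genes rose, in a family looked at after its values were seen. Of 13 tested components and regulators 5 rose and none fell, with a median log2 fold change of 0.52. C3, the central component, went from 4.49, 3.21 and 3.84 CPM to 8.25, 10.0 and 9.85 CPM (1.28 ± 0.17, adjusted p = 0.00617). The proteases of the first component rose as well, C1S from 86.6, 74.0 and 88.5 CPM to 153, 151 and 178 CPM (0.95 ± 0.10, adjusted p = 0.00143) and C1R from 24.0, 18.2 and 19.3 CPM to 36.2, 37.3 and 33.2 CPM (0.80 ± 0.13, adjusted p = 0.016). C4BPB and CLU, both regulators, rose by 0.68 and 0.57 on the log2 scale. C1S was called without each library in turn. C3 was not called without DMSO replicate 3 or GDC-0994 replicates 2 or 3 (adjusted p 0.0537 to 0.061), C1R and CLU without DMSO replicate 3 or any GDC-0994 replicate (0.0783 to 0.231), and C4BPB without these or DMSO replicate 1 (0.0608 to 0.196).

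In the interferon response 2 of 24 tested genes rose, at a median log2 fold change of 0.18. IFIH1, a sensor of double-stranded RNA, was at 7.46, 10.2 and 8.35 CPM against 14.01, 14.9 and 13.6 CPM (0.71 ± 0.14, adjusted p = 0.0422) and IFI44L at 2.66, 2.83 and 2.99 CPM against 4.67, 5.68 and 5.22 CPM (0.88 ± 0.18, adjusted p = 0.0435). Neither was called without DMSO replicates 1 or 3 or any GDC-0994 replicate (adjusted p 0.0663 to 0.228), and no member was called without DMSO replicate 1. IFI44L also lost its call with the GC and length trend removed (log2 fold change 0.71, adjusted p = 0.0556). SAMD9L, an antiviral gene among the largest rises, went from 2.21, 3.02 and 2.25 CPM to 6.34, 6.06 and 5.09 CPM (1.22 ± 0.20, adjusted p = 0.0175) and was lost without DMSO replicate 3 or any GDC-0994 replicate (adjusted p 0.055 to 0.128). ISG15 had an adjusted p of 0.98.

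Other rises reached the same size. ZSCAN31, a zinc finger gene, was at 5.25, 7.10 and 7.25 CPM with DMSO and 15.5, 14.999 and 18.6 CPM with GDC-0994 (1.32 ± 0.16, adjusted p = 0.00325). NNMT, which methylates nicotinamide, went from 8.85, 9.24 and 11.2 CPM to 20.4, 20.6 and 20.4 CPM (1.07 ± 0.12, adjusted p = 0.00275). HEG1, a mucin-like surface protein, went from 490.4, 535 and 536 CPM to 797, 793 and 814 CPM (0.62 ± 0.07), SLCO2B1, an organic anion transporter, from 24.98, 22.6 and 22.4 CPM to 40.0, 41.3 and 39.8 CPM (0.79 ± 0.10), and OLR1, a receptor for oxidised lipoprotein, from 85.8, 94.5 and 88.1 CPM to 144, 139 and 154 CPM (0.70 ± 0.08). These 5 genes were called without each library in turn. RBMS3, an RNA-binding protein gene, WISP2, a secreted CCN family gene, and the transporter genes SLC12A3 and SLC47A2 rose at low levels, by 1.30, 1.26, 1.65 and 1.40 on the log2 scale. None of these 4 was called without DMSO replicate 3 or any one GDC-0994 replicate (adjusted p 0.0677 to 0.211), and SLC47A2 was lost without DMSO replicate 1 too (adjusted p = 0.0754).

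The largest rise of a protein-coding gene, SIK1, is uncertain. SIK1, a salt-inducible kinase gene, was at 0.443, 0.503 and 0.244 CPM with DMSO and 1.98, 1.66 and 5.36 CPM with GDC-0994 (2.90 ± 0.55, adjusted p = 0.0348), from 4 to 8 counts in each control library. Its near-identical copy SIK1B had a log2 fold change of -0.72 (adjusted p = 0.0513). The sum of both in CPM of the plain library total was 9.98, 11.8 and 11.1 with DMSO and 8.56, 9.06 and 11.0 with GDC-0994, and these ranges overlap. SIK1 was not called without DMSO replicate 3 or GDC-0994 replicates 1 or 3 (adjusted p 0.0677 to 0.196), and its log2 fold change was 2.18 without GDC-0994 replicate 3. FAM45BP, a copy of FAM45A, rose with the same limit, from 3.604, 1.57 and 2.01 CPM to 6.72, 7.72 and 5.42 CPM (1.47 ± 0.28, adjusted p = 0.0373), while the sum of both was 16.4, 18.8 and 17.3 against 18.3, 17.0 and 19.9 CPM on that scale. FAM45BP was lost without DMSO replicate 3 or any GDC-0994 replicate (adjusted p 0.109 to 0.208).

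Ribosomal and mitochondrial transcripts gave a few calls with the same limit. RPS23, a ribosomal protein gene with processed copies, rose from 380.4, 371 and 377 CPM to 553, 718 and 751 CPM (0.84 ± 0.11, adjusted p = 0.00452) and was lost without DMSO replicate 3 (adjusted p = 0.0517). None of the 28 tested genes of a list of cytosolic ribosomal proteins was called, with a median of -0.10. MT-ATP8, which shares bases with MT-ATP6 on the mitochondrial genome, rose from 9.30, 10.6 and 12.1 CPM to 18.8, 19.5 and 21.3 CPM (0.90 ± 0.13, adjusted p = 0.0104), the 1 call of 13 such genes, and was lost without GDC-0994 replicates 2 or 3 (adjusted p 0.0615 to 0.0842). The metallothionein gene MT2A, which has close paralogs, fell from 189, 199.5 and 171 CPM to 80.7, 91.6 and 95.3 CPM (-1.06 ± 0.09, adjusted p = 5.78e-04).

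Among non-coding genes, MIR100HG, the host transcript of microRNAs including miR-100, fell from 11.6, 13.96 and 11.4 CPM to 5.76, 5.36 and 4.56 CPM (-1.24 ± 0.15, adjusted p = 0.00378) and was called without each library in turn. LINC00941 went from 2.72, 4.09 and 4.51 CPM to 1.54, 1.47 and 1.72 CPM (-1.26 ± 0.25, adjusted p = 0.0422) and LINC02009 from 2.02, 1.38 and 2.62 CPM to 4.67, 4.91 and 6.08 CPM (1.37 ± 0.25, adjusted p = 0.0276). Both were lost without DMSO replicate 3 or any GDC-0994 replicate (adjusted p 0.061 to 0.22). The long non-coding gene AC103718.1 fell from 18.8, 20.9 and 22.2 CPM to 9.02, 8.68 and 9.12 CPM (-1.21 ± 0.12, adjusted p = 9.06e-04) and was called without each library in turn. HOTAIR, an antisense transcript of the HOXC cluster, rose from 1.26, 1.45 and 1.16 CPM to 3.14, 2.68 and 2.98 CPM (1.18 ± 0.23, adjusted p = 0.0397). The labels describe no step that marks the strand, so its reads cannot be told apart from those of overlapping genes, and it was lost without DMSO replicates 1 or 3 or any GDC-0994 replicate (adjusted p 0.0782 to 0.201).

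The identity of the cells was checked on marker genes. Of 16 thyroid differentiation markers 3 were tested and none was called, and 4 had no count in any library. The thyroglobulin gene TG had 4 counts over all 6 libraries and TSHR 1, so these defining markers of differentiated thyroid cells were close to absent. PAX8, a thyroid transcription factor, was at 3.86, 2.83 and 3.72 CPM with DMSO and 2.82, 3.77 and 3.90 CPM with GDC-0994 (adjusted p = 0.987). HHEX was at 14.9, 16.1 and 15.2 CPM against 15.2, 18.7 and 17.1 CPM (adjusted p = 0.601), and the deiodinase gene DIO2 at 395, 426 and 403 CPM against 428, 406 and 404 CPM (adjusted p = 0.934). The summed level of the 16 markers was 415 to 446 CPM with DMSO and 426 to 447 CPM with GDC-0994, nearly all of it DIO2.

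No gene of 9 C cell markers or 12 blood cell markers passed the filter, and their summed levels stayed at or below 1.22 CPM and 1.40 CPM in every library. The endothelial markers CDH5 and EMCN had no count, and the 8 markers summed to 2.58 to 3.16 CPM with DMSO and 1.86 to 2.94 CPM with GDC-0994. Of 10 melanocytic and neural markers 4 were tested and 1 rose, MAP2, a microtubule-associated protein of neurons (34.3, 40.3 and 37.8 CPM against 71.1, 64.8 and 66.6 CPM, 0.85 ± 0.10, adjusted p = 0.00215). The other 9 markers held from 0 counts (TYR) to 123 counts (NEFL) over all 6 libraries.

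Epithelial and mesenchymal genes stayed mostly uncalled. Of 15 tested epithelial genes KRT7, a keratin of simple epithelia, fell, from 926, 742 and 796 CPM to 555, 581 and 536 CPM (-0.56 ± 0.09, adjusted p = 0.0166), and it was lost without DMSO replicate 3 or any GDC-0994 replicate (adjusted p 0.0899 to 0.142). The E-cadherin gene CDH1 was at 2.40, 1.82 and 1.40 CPM against 4.03, 2.62 and 3.11 CPM (adjusted p = 0.22). None of 19 tested mesenchymal and matrix genes was called (median 0.04), with 4 unadjusted p-values below 0.05, and VIM was at 1039, 1189 and 1091 CPM against 1004, 1024 and 1011 CPM (adjusted p = 0.435). In the TGF-beta and BMP list of 22 tested genes ID2 rose (0.61 ± 0.12, adjusted p = 0.0422) and SMAD3 fell (-0.42 ± 0.07, adjusted p = 0.0271), and of 13 tested WNT genes the inhibitor DKK1 fell (-0.52 ± 0.08, adjusted p = 0.0124). ID2, SMAD3 and DKK1 were lost without DMSO replicate 3 or any GDC-0994 replicate (adjusted p 0.0505 to 0.235).

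The lists of metabolism and protein homeostasis held 3 calls, where 1.5% of all tested genes were called, so these calls say little about the lists. None was found among 33 tested ribosome biogenesis and MYC target genes (median -0.10, 4 unadjusted p-values below 0.05), 22 chaperone and unfolded protein response genes (0 such p-values), 23 cholesterol genes (2), 15 fatty acid synthesis genes (1), 26 glycolysis and hypoxia genes (2) or 20 nuclear respiratory chain genes (2). Of 34 serine, one-carbon and ATF4 genes 1 rose, the mitochondrial folate enzyme gene ALDH1L2 (2.21, 1.82 and 2.44 CPM against 4.61, 4.15 and 4.69 CPM, 1.05 ± 0.20, adjusted p = 0.0344). Of 28 lysosome and autophagy genes GPNMB rose (0.87 ± 0.18, adjusted p = 0.0484) and the cholesterol carrier gene NPC2 fell (-0.61 ± 0.11, adjusted p = 0.0327). ALDH1L2 and GPNMB were lost without DMSO replicates 1 or 3 or any GDC-0994 replicate (adjusted p 0.0573 to 0.238), and NPC2 without DMSO replicate 3 or GDC-0994 replicates 2 or 3 (0.172 to 0.2). Of 11 antigen presentation genes, 16 cytokine and NF-kB targets and 9 histone genes none was called, with 2, 3 and 1 unadjusted p-values below 0.05.

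The response of TTA-1 was set beside that of KHM-5M in 1 edgeR model of all 12 libraries, in which the difference of the 2 effects was tested directly (KHM-5M minus TTA-1, 16218 genes). Of the 206 genes called in TTA-1, 127 differed between the lines at an adjusted p below 0.05, where 27.9% of all tested genes did. These 206 genes were chosen by their effect in TTA-1, and the difference uses the same TTA-1 libraries. The choice alone can raise their share, so it cannot be read against that of all genes. NT5E had a log2 fold change of -3.24 in KHM-5M, a difference of -1.01 ± 0.15 (adjusted p = 8.30e-05), and TGM2 one of -3.80, a difference of -1.63 ± 0.13 (adjusted p = 6.56e-08). PHLDA1, SPRY4, GPR3 and COL17A1 also fell further in KHM-5M, with log2 fold changes of -2.63, -3.12, -3.93 and -4.57 there. For DUSP5 the difference of 0.16 ± 0.23 did not pass the test (adjusted p = 0.681), nor did those of SLC12A3, SLC47A2, RBMS3, WISP2 and SAMD9L (adjusted p from 0.0656 to 0.844). EGR1 fell to 2 counts in TTA-1, so its fitted difference of 4.37 depends on the prior count. In KHM-5M EGR1 was at 3.44, 3.69 and 3.32 CPM with DMSO and 0.211, 0.332 and 0.123 CPM with GDC-0994.

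CDKN1A went in opposite directions in the 2 lines. It fell in TTA-1 (log2 fold change -1.10 in this model) and rose in KHM-5M, where it was at 22.9, 22.2 and 23.8 CPM with DMSO and 48.0, 49.2 and 43.0 CPM with GDC-0994 (1.03), a difference of 2.12 ± 0.15 (adjusted p = 1.81e-08). In all, 14 genes called in TTA-1 were called the opposite way in KHM-5M with the difference itself called, 7 that fell and 7 that rose in TTA-1. The complement gene C3 and the zinc finger gene ZSCAN31 rose in both lines and further in KHM-5M, by 2.47 and 3.05 on the log2 scale, with differences of 1.18 ± 0.18 and 1.71 ± 0.18.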

How the data were processed

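The deposited table holds counts per gene and FPKM values made by the authors. Per the submitters' processing notes, CASAVA, HISAT2 2.0.5, featureCounts 1.5.0-p3 and GRCh38 were used, with no further settings given in the sources used here. The FPKM values were the deposited counts over length and total, to a relative error of 4.85e-07. Counts of the 6 TTA-1 libraries were tested with edgeR 4.0.16 in R 4.3.3 by quasi-likelihood, with TMM scaling, 4 residual degrees of freedom and no term for the replicate number. Low genes were removed first by filterByExpr at a minimum count of 10 and total of 15. Benjamini-Hochberg adjustment covered the 13750 genes kept. DESeq2 1.42.0, limma 3.58.1 on log2(FPKM + 1), removal of a smooth GC and length trend (GENCODE 29), other scalings and filters, and each library left out were alternatives. The procedure was tested on simulated counts without a GC trend, so that test does not cover the trend between the DMSO libraries.

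The members and gene lists were chosen with earlier results of these data known. Named genes are the 12 largest protein-coding rises and falls, the ERK output list, up to 2 risen and 2 fallen members of each other list, the 5 most abundant called genes per direction, up to 4 non-coding genes per direction and up to 4 per direction that lost their call without DMSO replicate 1 or 2. Other genes were named after their values were seen, and some genes that the rule names are not reported here.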

Additional observations from a re-analysis of the deposited data

Results flagged for a closer look

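In the 12-library edgeR model, 14 genes called in TTA-1 were called in the opposite direction in KHM-5M, with the difference of the 2 effects itself called. Differences are log2 values, KHM-5M minus TTA-1. Of the genes that fell in TTA-1, the difference was 2.12 for CDKN1A, 1.16 for CYR61, 0.96 for ANKRD1, 1.06 for MICAL2, an actin regulator, 0.93 for CHIC2, 0.91 for MFSD10 and 2.78 for the pseudogene TMSB4XP8. Of those that rose in TTA-1, it was -1.33 for RPS23, -1.84 for MT-ATP8, -1.49 for RPS20P14, -3.05 for RPL7P26, -1.28 for AC009245.1, -1.89 for AC024293.1 and -4.84 for AL355032.1. Apart from MT-ATP8, which overlaps MT-ATP6, these risen genes are a ribosomal protein gene and sequences like those of other genes, so the assignment of their reads is uncertain. CDKN1A kept its TTA-1 call without each library in turn. Without DMSO replicate 3 or any GDC-0994 replicate, CYR61, MICAL2, CHIC2, MFSD10 and AC009245.1 were not called in TTA-1 (adjusted p 0.0813 to 0.243), nor were ANKRD1, TMSB4XP8 and RPL7P26, which were also lost without DMSO replicate 1 (0.0506 to 0.281). RPS20P14 and AC024293.1 were not called without DMSO replicates 1 or 3 or GDC-0994 replicates 2 or 3 (0.0565 to 0.206), MT-ATP8 and AL355032.1 without GDC-0994 replicates 2 or 3 (0.0615 to 0.0918), and RPS23 without DMSO replicate 3 (0.0517).

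Of the 8 largest rises and 8 largest falls of protein-coding genes in TTA-1 with at least 1 CPM in the higher group, 10 differed between the lines. They were chosen by their effect in TTA-1, in libraries that the difference also uses. EGR1 (4.37, a value that depends on the prior count), ZSCAN31 (1.71) and C3 (1.18) had a higher log2 fold change in KHM-5M. SIK1 (-2.28), COL17A1 (-2.15), GPR3 (-1.95), TGM2 (-1.63), SPRY4 (-1.39), NT5E (-1.01) and PHLDA1 (-0.86) had a lower one. The lines also differ in medium, and the part of medium, BRAF status and line cannot be told apart.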

How the results depend on the processing

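The 134 genes recomputed under the alternatives, those named as called and the tested ERK output genes, kept their direction in TTA-1 in each, while other genes named as not called were not recomputed, and 11 of the 72 genes named by rule were called under each. The 206 calls became 439 with DESeq2's Wald test, 900 without a filter on low counts, 556 with all 12 libraries in the model, 610 with the GC and length trend removed, and 88 with limma on log2(FPKM + 1) after an FPKM filter, 36 unfiltered and 79 on filtered log2(FPKM + 0.1). Leaving out 1 library gave 45 to 2888 calls: 187 without DMSO replicate 1, 2888 without DMSO replicate 2, 48 without DMSO replicate 3, and 65, 49 and 45 without GDC-0994 replicates 1, 2 and 3. Added after seeing the data were fits without DMSO replicates 1 and 2, where the lone DMSO library is assumed to vary like the treated group (616 calls), and with the GC trend removed without DMSO replicate 1 (436) or 2 (1660). The 60 calls of at least 2-fold became 160 without a filter, 116 with 12 libraries, 17, 13 and 27 with the 3 limma fits in the order above, 24 to 227 with 1 library left out (24 without GDC-0994 replicate 3, 227 without DMSO replicate 2), and 153 without DMSO replicate 2 with the trend removed. With the replicate block the counts were 315 calls, and 791 calls and 100 of at least 2-fold with the GC trend removed as well. Same-numbered libraries correlated at 0.284, -0.131 and -0.134 in their deviations from the group means, and unlike-numbered ones at -0.409 to 0.418. These deviations hold the GC trend of the libraries, so the values cannot decide whether the numbers pair the samples. The cause of these shifts was not tested. With 1 KHM-5M library left out, the difference between the lines ranged from -0.16 to 0.50 for SLC47A2 (below 0 without DMSO replicate 1, and -0.10 without GDC-0994 replicate 1), from -0.10 to 0.35 for SAMD9L (below 0 without GDC-0994 replicate 3) and from -0.022 to 0.38 for DUSP5 (below 0 without GDC-0994 replicate 2), and these reversed values were not called. With 3 libraries a group and a GC trend that separates 2 of the controls, small changes of GC-rich or GC-poor genes are not resolved.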

Other observations

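Some called genes in TTA-1 belong to none of the lists and were chosen after their values were seen. NRCAM, a neuronal adhesion molecule, was at 31.4, 44.2 and 37.0 CPM with DMSO and 55.4, 57.4 and 59.9 CPM with GDC-0994 (log2 fold change 0.62 ± 0.12, adjusted p = 0.0422, edgeR). TENM3, a teneurin, was at 164, 156 and 162 CPM against 199.7, 199.97 and 209.9 CPM (0.34 ± 0.07, adjusted p = 0.0499), and EDIL3, a secreted integrin ligand, at 41.0, 56.1 and 44.7 CPM against 71.3, 66.1 and 81.7 CPM (0.63 ± 0.13, adjusted p = 0.0487). NRCAM and TENM3 were not called without DMSO replicate 3 or any GDC-0994 replicate, nor EDIL3 without these or DMSO replicate 1 (adjusted p 0.0608 to 0.286 over the 3 genes).

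Secreted and signalling proteins also changed. SPP1, which encodes osteopontin, was at 5.56, 5.97 and 5.73 CPM with DMSO and 12.03, 9.96 and 10.2 CPM with GDC-0994 (0.90 ± 0.14, adjusted p = 0.0154), and CBLB, a ubiquitin ligase for receptors, at 33.01, 41.5 and 37.5 CPM against 57.8, 63.8 and 63.1 CPM (0.72 ± 0.11, adjusted p = 0.0108). PTX3, a secreted pentraxin, was at 54.8, 52.1 and 51.0 CPM against 22.3, 21.4 and 23.2 CPM (-1.24 ± 0.09, adjusted p = 1.71e-04), and was called without each library in turn. The convertase gene FURIN was at 47.4, 33.1 and 43.9 CPM against 22.6, 24.8 and 22.7 CPM (-0.83 ± 0.14, adjusted p = 0.0202), and TFPI2, a protease inhibitor gene, at 20.1, 23.1 and 19.2 CPM against 10.4, 10.5 and 9.19 CPM (-1.06 ± 0.12, adjusted p = 0.00298). SPP1 and FURIN were not called without DMSO replicate 3 or any GDC-0994 replicate, nor CBLB without DMSO replicate 3 or GDC-0994 replicates 2 or 3 (adjusted p 0.0614 to 0.152 over the 3 genes).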
